A study of Mus musculus with 2 samples.

Results

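In parathyroid glands of chimeric mice, 68 of 4924 cell barcodes were macrophages of the kind described here, 17 in replicate 1 and 51 in replicate 2. They held more detected genes of a set with Folr2 and Mrc1 than of a set with Mmp12 and Cx3cr1. They were chosen from their own RNA. A barcode entered with at least 500 genes, under 15% mitochondrial UMIs (unique molecular identifiers, each 1 counted transcript molecule) and under 1% of its UMIs from Pth, the parathyroid hormone gene. It counted as a macrophage with a UMI of at least 3 of C1qa, C1qb, C1qc, Csf1r and Adgre1 and at most 1 UMI of the endothelial gene Cdh5, which gave 192 macrophages. Of these, the 68 described here had UMIs of more genes among F13a1, Pf4, Folr2, Mrc1 and Cd163 (set B) than among Mmp12, Cx3cr1, Trem2, Cd72 and Il1a (set A), and are called Folr2 Mrc1 macrophages. The 108 with more set A genes are called Mmp12 Cx3cr1 macrophages, and 16 were tied.

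All glands came from Gcm2-/- hosts on a BDF1B6 background, which cannot make their own glands without the transcription factor Gcm2, complemented with Pth-tdTomato mouse embryonic stem cells. Replicate 1 held pooled glands from 3 hosts, 9 to 12 weeks old, whose blood was 50 to 70% chimeric. Replicate 2 held those of 5 hosts, 6 to 13 weeks old, at 60 to 70%. Males and females were mixed in each pool, so that sex and single mice could not be told apart. There was no group of native glands or other treatment, so the Folr2 Mrc1 macrophages were compared with other cells of the same glands: the Mmp12 Cx3cr1 macrophages, and the 328 other immune barcodes, which held at least 1 UMI of the pan-leukocyte gene Ptprc and under 1% Pth. By marker gates the other immune barcodes were 171 lymphoid, 105 dendritic, 37 neutrophil, 4 B cell and 1 mast cell barcodes, with 10 that passed no gate.

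Macrophages are phagocytes that settle in most organs, where they clear dying cells and debris, take up iron from old red cells and present antigen on MHC class II. Those that carry the folate receptor Folr2, the mannose receptor Mrc1 and the haemoglobin receptor Cd163 are known in many mouse tissues, often near blood vessels, where a part of them also carries the hyaluronan receptor Lyve1 and the phosphatidylserine receptor Timd4. Such cells are often called resident because they can persist without replacement by blood monocytes. Residence and origin cannot be read from the levels of RNA given here, and the word is used only as a name for a list of genes.

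The 5 set B genes lie on separate chromosomes: Folr2 on chromosome 7 (101839988 to 101857194, minus strand), Mrc1 on chromosome 2 (14229392 to 14332057, plus strand), F13a1 on chromosome 13 (36867178 to 37050244, minus strand), Pf4 on chromosome 5 (90772435 to 90773383, plus strand) and Cd163 on chromosome 6 (124304656 to 124330527, plus strand), all in GENCODE vM21 on GRCm38. The promoters of the set B genes Folr2, Mrc1 and Pf4 are printed as examples, and those of F13a1 and Cd163 are described after them. Sites of the MAF family and PU.1 (Spi1) were searched because these transcription factors are active in macrophages. Each run is the 250 bases before the transcription start in RefSeq on GRCm38.p6, read 5′ to 3′ on the strand of the gene. They are chr7:101857191-101857440 on the minus strand for Folr2, chr2:14229164-14229413 on the plus strand for Mrc1 and chr5:90772185-90772434 on the plus strand for Pf4. Capitals mark the letters TGCTGA of a MAF half-site and GAGGAA of a PU.1 core, searched on both strands (TCAGCA and TTCCTC on the other), and no capital marks an overlap of both.
Folr2: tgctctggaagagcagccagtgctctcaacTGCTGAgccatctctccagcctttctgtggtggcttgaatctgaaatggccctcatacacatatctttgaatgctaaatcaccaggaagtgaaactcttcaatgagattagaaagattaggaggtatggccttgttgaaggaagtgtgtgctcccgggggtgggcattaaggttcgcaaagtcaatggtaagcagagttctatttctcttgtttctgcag
Mrc1: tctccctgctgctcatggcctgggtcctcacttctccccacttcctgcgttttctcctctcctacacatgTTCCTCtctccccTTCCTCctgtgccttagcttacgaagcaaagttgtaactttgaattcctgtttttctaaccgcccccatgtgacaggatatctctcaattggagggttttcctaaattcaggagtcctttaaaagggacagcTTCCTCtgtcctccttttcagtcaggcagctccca
Pf4: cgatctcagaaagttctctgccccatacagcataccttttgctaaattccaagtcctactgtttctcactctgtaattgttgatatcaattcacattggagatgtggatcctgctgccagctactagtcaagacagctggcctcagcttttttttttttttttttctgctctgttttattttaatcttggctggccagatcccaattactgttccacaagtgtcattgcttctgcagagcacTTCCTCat
The Folr2 window held 1 MAF half-site, the Mrc1 window 3 PU.1 cores and the Pf4 window 1 PU.1 core. Folr2 and F13a1 have 2 RefSeq starts each, and the outermost Folr2 start was printed. The other Folr2 window also held 1 MAF half-site, and the F13a1 windows held 1 PU.1 core (outermost start) and 0. Among 32851 RefSeq promoter windows of the same length, 16.1% held the MAF half-site and 23.3% the PU.1 core, so that such short letters are common. The Cd163 window held neither.

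The genes of the rule are given as a description, since they chose the cells. Levels are CPM, the UMI counts of a gene scaled to the total of all barcodes of a class in 1 library (counts per 1e6). Mrc1 had 1934 and 4508 CPM in the Folr2 Mrc1 macrophages of replicates 1 and 2, against 72.4 and 156 CPM in Mmp12 Cx3cr1 macrophages and 65.0 and 81.7 CPM in other immune barcodes. F13a1, a clotting factor subunit of macrophages, had 1359 and 2241 CPM, against 9.05 and 10.3 CPM in Mmp12 Cx3cr1 macrophages and 24.1 and 45.1 CPM in other immune barcodes. Pf4, a heparin-binding chemokine, had 1591 and 3288 CPM, against 46.7 and 75.1 CPM in Mmp12 Cx3cr1 macrophages and 7.90 and 37.5 CPM in other immune barcodes. All 5 set B genes were higher in the Folr2 Mrc1 macrophages of replicate 2 than in those of replicate 1, and summed to 11586 against 6007 CPM. Folr2 had 356 and 584 CPM, against 0 UMIs in Mmp12 Cx3cr1 macrophages and 0.878 and 4.75 CPM in other immune barcodes. Cd163 had 767 and 964 CPM, against 3.02 and 3.95 CPM in Mmp12 Cx3cr1 macrophages and 12.7 and 31.8 CPM in other immune barcodes. Folr2, which names the cells, was the set B gene found in the fewest of them, with a UMI in 9 of 17 and 40 of 51, and Mrc1 was found in all 68.

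The 5 macrophage genes of the rule summed to like levels in both macrophage classes. The sums were 11343 and 12596 CPM in Folr2 Mrc1 macrophages, against 11247 and 11730 CPM in Mmp12 Cx3cr1 macrophages. Single genes were not all alike. At equal depth per barcode, Csf1r was found in 100% and 98% of Folr2 Mrc1 macrophages, against 83.3% and 80.0% of Mmp12 Cx3cr1 macrophages. Adgre1 differed in direction between the libraries, with 73.3% and 80.0% against 80.6% and 68.6%. C1qa, a chain of the complement starter C1q, had 3613 and 4430.5 CPM in Folr2 Mrc1 macrophages, against 3872 and 4517 CPM in Mmp12 Cx3cr1 macrophages and 6.59 and 80.7 CPM in other immune barcodes. Together the 5 set A genes summed to 299.8 and 219 CPM in Folr2 Mrc1 macrophages, against 2019 and 1935 CPM in Mmp12 Cx3cr1 macrophages. Cx3cr1, the fractalkine receptor, had 188 and 117 CPM in Folr2 Mrc1 macrophages against 469 and 466 CPM in Mmp12 Cx3cr1 macrophages, and the elastase gene Mmp12 had 0 UMIs against 241 and 404 CPM. Trem2, a lipid receptor of macrophages, was nearest between the classes, with 79.9 and 48.9 CPM against 122 and 147 CPM.

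Most of the 68 lay away from the limit of the rule. All 5 set B genes were found in 45 of the 68, and 23 held no set A gene. Just inside the limit, 13 had 1 set B gene more than set A genes, and just outside it stood the 16 tied macrophages. A further 11 barcodes had more set B than set A genes but only 2 of the macrophage genes, 1 was kept out by Cdh5, and 6 by Pth, which made up 1.046 to 11.681% of their UMIs. The highest Pth share among the 68 was 0.7932%.

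**Figure D1:**
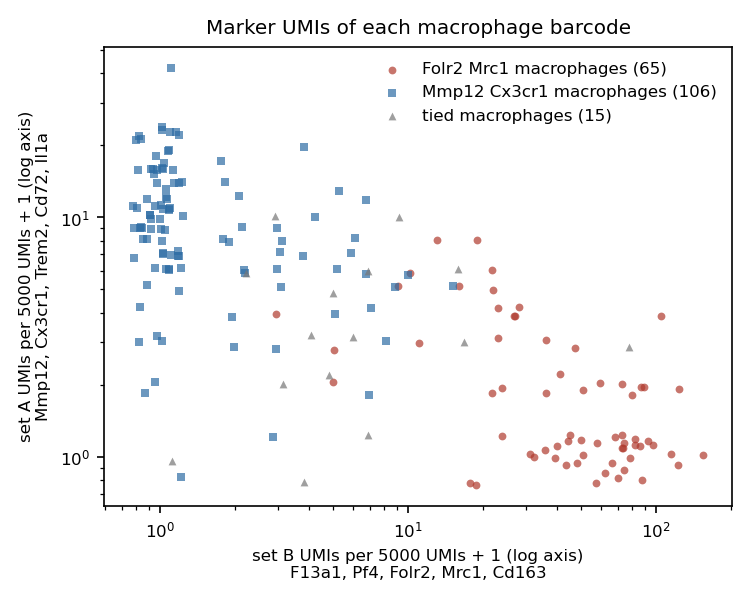
UMIs of set A genes (vertical axis) against UMIs of set B genes (horizontal axis) in every macrophage barcode that could be thinned to 5000 UMIs, on log axes of the count plus 1 with slight jitter, 1 point per barcode of both replicates. Folr2 Mrc1 macrophages held a median of 26 set B UMIs in replicate 1 and 53 in replicate 2, against a median of 0 in Mmp12 Cx3cr1 macrophages of each replicate.

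The Folr2 Mrc1 macrophages had medians of 15409 and 15630 UMIs and 3596 and 3737 genes per barcode, against 19237 and 16677 UMIs in Mmp12 Cx3cr1 macrophages and 12572 and 9656 UMIs in other immune barcodes, and their sums held 250204 and 797422 UMIs. The libraries held 41517620 and 88283761 UMIs and shared 3 barcode sequences, none of them in a Folr2 Mrc1 macrophage. Pth UMIs were found in all classes at like levels, and stood at 1747 and 1643 CPM in Folr2 Mrc1 macrophages, against 1709 and 2000 CPM in Mmp12 Cx3cr1 macrophages and 1578 and 1580 CPM in other immune barcodes. In Folr2 Mrc1 macrophages 4 of the 5 neutrophil gate genes (S100a8, S100a9, Retnlg and Cxcr2) had 0 UMIs. Of the 12 lymphoid gate genes, Cd3e, Trbc2, Thy1 and Ncr1 had 0 UMIs, and the list summed to 40.0 and 47.7 CPM, against 5609 and 7034 CPM in lymphoid gate barcodes. Of the 10 dendritic gate genes, Xcr1 and Ccr7 had 0 UMIs, but 7 and 8 were found in replicates 1 and 2. They summed to 312 and 324 CPM, against 1560 and 1503 CPM in dendritic gate barcodes, and 36 of the 68 held at least 2 of them. The 5 fibroblast markers summed to 32.0 and 608 CPM, and 1 barcode of replicate 2 held 441 of these UMIs, with at most 4 in any other. That barcode supplied 90.4% of the Dcn, 94.4% of the Penk and 90.4% of the Lsamp UMIs of all 68.

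Markers outside the rule can go along with its genes and were chosen with earlier results of these data known. They describe the class and are no separate evidence for the label. Of these, 10 macrophage markers were all detected in both libraries. Each of the 68 barcodes held at least 2 of them, but so did 103 of 105 dendritic and 37 of 37 neutrophil gate barcodes. They summed to 15907 and 14393 CPM in Folr2 Mrc1 macrophages, against 13216 and 13353 CPM in Mmp12 Cx3cr1 macrophages and 3302 and 2857 CPM in other immune barcodes. Within the other immune barcodes the sums were 9243 and 8834 CPM in the neutrophil gate, 4917 and 5043 CPM in the dendritic gate and 575 and 109 CPM in the lymphoid gate. The 6 markers of the Timd4 and Lyve1 type (Timd4, Lyve1, Cbr2, Gas6, Stab1 and Maf) summed to 2110 and 3278 CPM in Folr2 Mrc1 macrophages, against 189 and 255 CPM in Mmp12 Cx3cr1 macrophages and 180 and 256 CPM in other immune barcodes. At least 2 of these 6 were found in 64 of 68 Folr2 Mrc1 macrophages, against 39 of 108 Mmp12 Cx3cr1 macrophages and 21 of 328 other immune barcodes, but also in 2799 of 2953 Pth-rich barcodes, where they summed to 587 and 609 CPM.

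**Figure D2:**
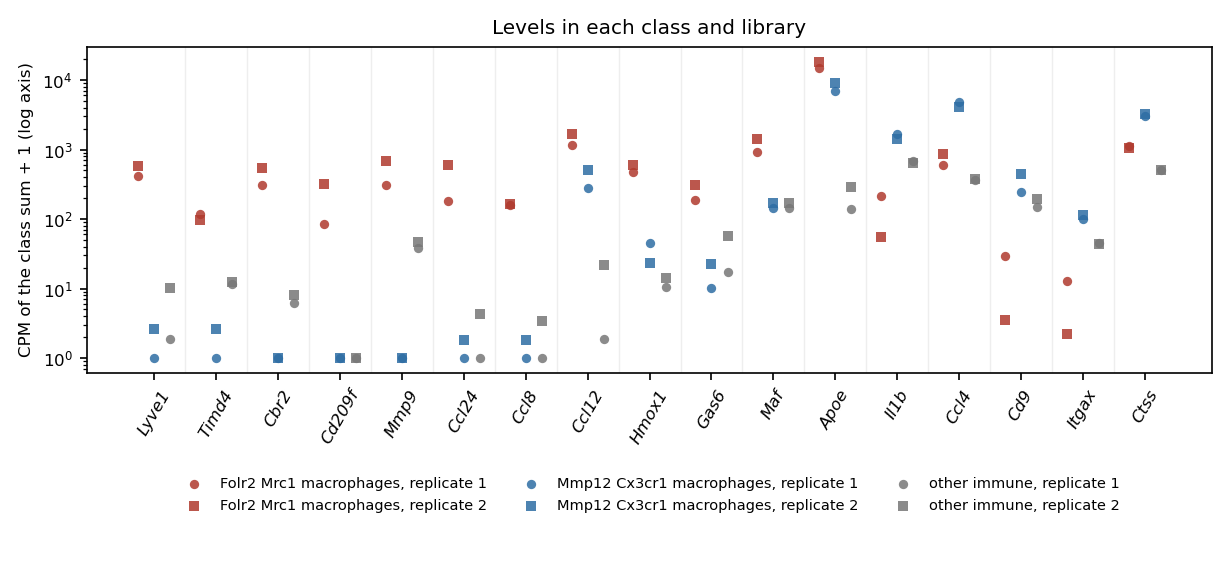
Level in CPM (log axis of CPM plus 1) of named genes outside the rule in the Folr2 Mrc1 macrophages, Mmp12 Cx3cr1 macrophages and other immune barcodes, with 1 point per class and replicate. For Lyve1 the points of the Folr2 Mrc1 macrophages lie at 412 and 577 CPM, those of the Mmp12 Cx3cr1 macrophages at 0 and 1.58 CPM and those of other immune barcodes at 0.878 and 9.02 CPM.

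Against other immune barcodes, 1216 of 9298 tested genes were higher in Folr2 Mrc1 macrophages (13.1% of genes) and 1456 lower (15.7%), in edgeR's quasi-likelihood test on UMI sums with library as a block and an adjusted p of 0.05. The direction was shared by both libraries for 1209 of the 1216 and 1451 of the 1456. Against Mmp12 Cx3cr1 macrophages, 539 genes were higher (5.8%) and 641 lower (6.89%), with 538 and 636 in the same direction in both libraries. The median log2 fold change over all genes was -0.12 and -0.04. Genes that go along with the 18 genes of the rule differ through the choice of barcodes, so the calls describe what accompanies these genes and are no separate evidence for the classes. Both comparisons share the Folr2 Mrc1 libraries, and their values are given side by side.

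The genes of the resident list were the most uniform. Of its 36 genes, 5 belonged to the rule and were not counted. The list was chosen with earlier results of these data known. Its counts therefore describe what accompanies the rule and are no separate evidence for the class. Of 28 tested, 28 were higher than in other immune barcodes, where 13.1% of all genes were, and 27 higher than in Mmp12 Cx3cr1 macrophages, where 5.8% were, at median log2 fold changes of 3.58 and 3.70. DESeq2 gave 24 and 23 higher of 31 it tested, none was lower by either tool or at an unadjusted p under 0.05, and against the dendritic gate alone 27 of 28 were higher. Lyve1 (chromosome 7, 110850607 to 110863239) was higher than in other immune barcodes with a log2 fold change of 6.84 (SE 0.40, adjusted p = 1.60e-08). Its 2 UMIs in Mmp12 Cx3cr1 macrophages limit any fold there. Timd4, which binds phosphatidylserine on dying cells, had 116 and 95.3 CPM in Folr2 Mrc1 macrophages, against 0 and 1.58 CPM in Mmp12 Cx3cr1 macrophages and 10.5 and 11.4 CPM in other immune barcodes. Its log2 fold change against other immune barcodes was 3.35 (SE 0.37, adjusted p = 7.95e-06). Hpgd, which breaks down prostaglandins, did not pass the test against Mmp12 Cx3cr1 macrophages (272 and 248 CPM against 110.1 and 198 CPM, adjusted p = 0.107).

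Cbr2, a carbonyl reductase, had 308 and 540.5 CPM in Folr2 Mrc1 macrophages and 0 UMIs in Mmp12 Cx3cr1 macrophages, at least 312-fold higher against a floor of 3 counts over the class. In other immune barcodes it had 5.27 and 7.12 CPM. Cbr2 was also found in Pth-rich barcodes, at 132 and 133 CPM. The transcription factor gene Maf, which helps to hold macrophages in their mature state, was higher in both comparisons. It had 927 and 1430 CPM in Folr2 Mrc1 macrophages, against 142 and 168 CPM in Mmp12 Cx3cr1 macrophages and 143 and 168 CPM in other immune barcodes (log2 fold change 2.82 and 3.03, SE 0.21 and 0.20, adjusted p = 6.65e-07 and 5.86e-08). Vsig4 and Cd5l, which mark macrophages of other organs such as the liver, had 4 and 0 UMIs in Folr2 Mrc1 macrophages and were too low to test.

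The highest log2 fold change against other immune barcodes was that of Retnla, a secreted protein that is raised by type 2 cytokines. It had 452 and 2053 CPM in Folr2 Mrc1 macrophages, against 1.51 and 4.74 CPM in Mmp12 Cx3cr1 macrophages and 0.439 and 0 CPM in other immune barcodes (log2 fold change 11.92, SE 0.44, adjusted p = 6.18e-10). Only 12 of the 68 barcodes held a Retnla UMI, and 1 of them supplied 31.9% of these UMIs. Cxcl13, which draws B cells, was as uneven, with 144 and 243 CPM, 0 UMIs in both other classes, 11 barcodes with a UMI and 44.3% of the UMIs from 1 of them. Both genes were thus found in a minority of the barcodes.

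The 12 highest also held the chemokine genes Ccl24, Ccl12 and Ccl8 and genes of other kinds. Cd209f, a C-type lectin, had 83.9 and 321 CPM in Folr2 Mrc1 macrophages and 0 UMIs in both other classes, at least 386-fold higher than other immune barcodes and at least 170.0-fold higher than Mmp12 Cx3cr1 macrophages. Cd209g, its close relative, was at least 153-fold and at least 67.5-fold higher. The Cd209 genes are relatives, and whether counts were split between them was not tested. Siglec1, a sialic acid lectin of macrophages, had 52.0 and 43.9 CPM in Folr2 Mrc1 macrophages, against 10.6 and 12.6 CPM in Mmp12 Cx3cr1 macrophages (log2 fold change 1.89, SE 0.51, adjusted p = 0.0257), and 0 UMIs in other immune barcodes. C4b and C6, complement components, and Fcna, a lectin that starts complement, were also among the 12 highest, with 99, 25 and 76 UMIs in the 68 barcodes and at most 2 in other immune barcodes. Chp2, a calcium-binding protein, had 67.9 and 76.5 CPM in Folr2 Mrc1 macrophages, against 0 UMIs in Mmp12 Cx3cr1 macrophages.

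Over the complement list, 7 of 16 tested genes were higher and 1 lower than in other immune barcodes (13.1% and 15.7% of all genes). The counts against Mmp12 Cx3cr1 macrophages were 6 higher and 1 lower (5.8% and 6.89% of all genes). Cfp, which stabilises the alternative pathway, was higher in both comparisons, with log2 fold changes of 2.33 against Mmp12 Cx3cr1 macrophages and 2.42 against other immune barcodes. C3ar1, the receptor of a complement fragment, did not pass the test against Mmp12 Cx3cr1 macrophages (464 and 374 CPM against 380.0 and 262 CPM). The single lower gene was Itgax in both comparisons, the integrin of dendritic cells, with 12.0 and 1.25 CPM in Folr2 Mrc1 macrophages, against 99.5 and 112 CPM in Mmp12 Cx3cr1 macrophages and 43.9 and 42.7 CPM in other immune barcodes.

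Of 25 tested scavenger and endocytosis genes, 17 were higher and 2 lower than in other immune barcodes (13.1% and 15.7% of all genes). Compared with Mmp12 Cx3cr1 macrophages, 10 were higher and 2 lower (5.8% and 6.89% of all genes). Cd36, which binds oxidised lipids, had 895 and 804 CPM in Folr2 Mrc1 macrophages, against 300.1 and 203 CPM in Mmp12 Cx3cr1 macrophages and 33.8 and 35.6 CPM in other immune barcodes. Stab1, a scavenger receptor of macrophages and sinus endothelium, had 159.9 and 331 CPM, against 37.7 and 62.4 CPM in Mmp12 Cx3cr1 macrophages and 3.95 and 5.22 CPM in other immune barcodes. Both genes were higher in each library and passed both tests (adjusted p = 7.01e-05 and 4.36e-05 against Mmp12 Cx3cr1 macrophages). Dab2 and Msr1 were also higher in both, with log2 fold changes against Mmp12 Cx3cr1 macrophages of 2.03 and 3.34.

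In the list for the uptake of dying cells, 12 of 23 genes were higher and 3 lower than in other immune barcodes. The shares over all genes were 13.1% and 15.7%. The counts against Mmp12 Cx3cr1 macrophages were 5 higher and 6 lower (5.8% and 6.89% of all genes). The receptor tyrosine kinase Mertk had 176 and 341 CPM in Folr2 Mrc1 macrophages, against 79.9 and 92.4 CPM in Mmp12 Cx3cr1 macrophages and 6.15 and 6.65 CPM in other immune barcodes. Its ligand Gas6, which bridges it to phosphatidylserine, had 188 and 305 CPM, against 9.05 and 21.3 CPM in Mmp12 Cx3cr1 macrophages and 16.2 and 56.0 CPM in other immune barcodes. Receptor and ligand were both higher than in Mmp12 Cx3cr1 macrophages (log2 fold change 1.50 and 3.95, SE 0.26 and 0.34, adjusted p = 0.00128 and 2.57e-06). Itgb5, an integrin chain that also serves uptake, was lower than in them, with 79.9 and 77.8 CPM against 214 and 266 CPM.

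Of 20 tested genes of iron and haem, 12 were higher and 1 lower than in other immune barcodes (13.1% and 15.7% of all genes). Compared with Mmp12 Cx3cr1 macrophages, 8 were higher and 1 lower (5.8% and 6.89% of all genes). Hmox1, which opens haem, had 468 and 606 CPM in Folr2 Mrc1 macrophages, against 43.7 and 22.1 CPM in Mmp12 Cx3cr1 macrophages and 9.66 and 13.3 CPM in other immune barcodes (log2 fold change 4.04 and 5.67, SE 0.31 and 0.32, adjusted p = 1.16e-06 and 1.39e-08). Blvrb, an enzyme of haem breakdown, had 248 and 341 CPM, against 51.3 and 75.1 CPM in Mmp12 Cx3cr1 macrophages and 12.3 and 17.1 CPM in other immune barcodes. Slc40a1, the iron exporter ferroportin, had 44.0 and 47.7 CPM and 0 UMIs in Mmp12 Cx3cr1 macrophages, at least 30.1-fold higher, but only 15 of the 68 barcodes held a UMI. Transferrin (Trf) was higher in both comparisons, and the ferritin light chain Ftl1, at 4992 and 5311 CPM against 3931 and 3671 CPM in Mmp12 Cx3cr1 macrophages, did not pass the test there (adjusted p = 0.243).

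**Figure D3:**
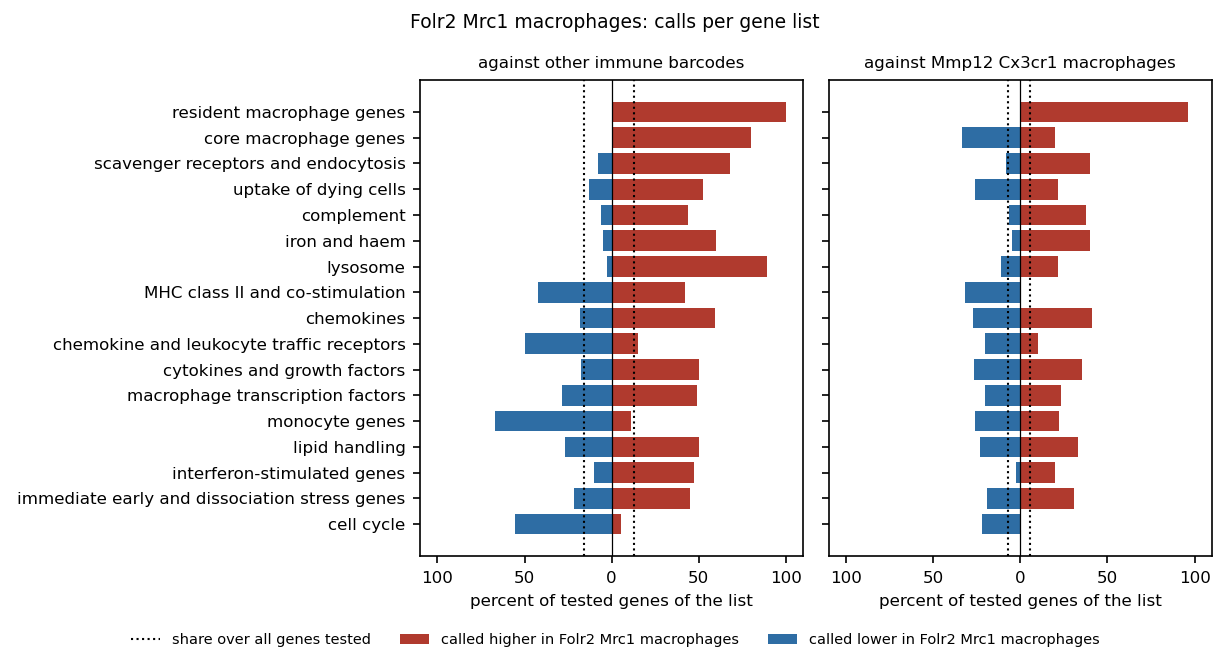
Share of tested genes (percent, horizontal axis) called higher (right) and lower (left) in Folr2 Mrc1 macrophages for each of the 17 gene lists, against other immune barcodes and against Mmp12 Cx3cr1 macrophages. The resident list has 28 and 27 genes higher and none lower. The lysosome list has 33 higher in the first comparison and 8 higher with 4 lower in the second. Dotted lines mark the shares over all genes, 13.1% and 15.7% in the first comparison and 5.8% and 6.89% in the second.

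Genes of macrophages in general set the cells apart from other immune barcodes and less from Mmp12 Cx3cr1 macrophages. In the core macrophage list 24 of 30 genes were higher and 0 lower than in other immune barcodes (13.1% and 15.7% of all genes). None was lower by DESeq2 either, and 1 was lower by edgeR at an unadjusted p under 0.05. Against Mmp12 Cx3cr1 macrophages 6 were higher and 10 lower (5.8% and 6.89% of all genes). Lyz2, lysozyme, had 9764 and 7685 CPM in Folr2 Mrc1 macrophages, against 4248 and 4004 CPM in Mmp12 Cx3cr1 macrophages and 1015 and 856 CPM in other immune barcodes. Tgfbr1, a receptor chain for TGF-beta, was lower than in Mmp12 Cx3cr1 macrophages, with 99.9 and 57.7 CPM against 544 and 639 CPM (log2 fold change -3.17, SE 0.34, adjusted p = 2.19e-05). Cd68 and Fcgr1, often used to name macrophages, did not differ past the threshold between the macrophage classes (272 and 291 CPM against 244 and 292 CPM for Cd68, and 132 and 86.5 CPM against 125 and 118 CPM for Fcgr1).

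The lysosome list was higher than in other immune barcodes for 33 of 37 genes and lower for 1 (13.1% and 15.7% of all genes). Compared with Mmp12 Cx3cr1 macrophages, it was higher for 8 and lower for 4 (5.8% and 6.89% of all genes). The balance between the macrophage classes turned with the test: DESeq2 gave 3 higher and 5 lower, edgeR with no replicate block 2 and 4, and sums thinned to 5000 UMIs per barcode 4 and 5. The lysosomal proteases Ctsb and Ctss differed in direction between the macrophage classes. Ctsb had 1359 and 1727 CPM in Folr2 Mrc1 macrophages against 618 and 620.2 CPM in Mmp12 Cx3cr1 macrophages (log2 fold change 1.23, SE 0.19, adjusted p = 6.66e-04). Ctss, which trims the MHC class II chaperone, had 1115 and 1058 CPM against 3070.3 and 3225 CPM (log2 fold change -1.63, SE 0.17, adjusted p = 2.16e-05).

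Of 19 tested genes of MHC class II and co-stimulation, 0 were higher and 6 lower than in Mmp12 Cx3cr1 macrophages by edgeR. At an unadjusted p under 0.05 the counts were 0 and 13, and by DESeq2 with adjustment 0 and 4. Over all genes, edgeR with adjustment called 5.8% higher and 6.89% lower. Cd74, the class II chaperone, had 21091 and 14926 CPM in Folr2 Mrc1 macrophages, against 30326 and 28236 CPM in Mmp12 Cx3cr1 macrophages (log2 fold change -0.81, SE 0.20, adjusted p = 0.0139). H2-Aa, a class II chain, did not pass, with 9252 and 7882 CPM against 10536 and 11337 CPM (adjusted p = 0.163). H2-Oa, part of a brake on class II loading, was lower, with 4.0 and 5.02 CPM against 48.3 and 67.9 CPM.

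Against other immune barcodes the same list split into 8 higher and 8 lower (13.1% and 15.7% of all genes). H2-Aa was higher, with 3225 and 4254 CPM in other immune barcodes, but those mix cells with and without class II. The dendritic gate barcodes had 6997 and 9142 CPM and the lymphoid gate barcodes 13.7 and 6.31 CPM. Against the dendritic gate alone the log2 fold change of H2-Aa was 0.09, which did not pass the test, and 1 of 18 tested genes of the list was higher and 9 lower. Ccr7, the receptor that leads dendritic cells to lymph nodes, had 0 UMIs in Folr2 Mrc1 macrophages, at least 61.0-fold lower than in other immune barcodes.

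Chemokine genes differed between the macrophage classes in both directions. In the list, 13 of 22 genes were higher and 4 lower than in other immune barcodes (13.1% and 15.7% of all genes). The counts against Mmp12 Cx3cr1 macrophages were 9 higher and 6 lower (5.8% and 6.89% of all genes). Ccl24, which draws eosinophils, had 179.8 and 602 CPM in Folr2 Mrc1 macrophages, against 0 and 0.790 CPM in Mmp12 Cx3cr1 macrophages and 0 and 3.32 CPM in other immune barcodes (log2 fold change against other immune barcodes 7.98, SE 0.41, adjusted p = 6.72e-09). Ccl2, which draws monocytes, had 2762 and 3343 CPM, against 1246 and 1085 CPM in Mmp12 Cx3cr1 macrophages and 55.3 and 187 CPM in other immune barcodes. Its neighbours Ccl7 and Ccl12 had log2 fold changes of 2.15 and 1.83 against Mmp12 Cx3cr1 macrophages and 5.56 and 7.33 against other immune barcodes. Ccl8, with 156 and 162 CPM, had 1 UMI in Mmp12 Cx3cr1 macrophages. Ccl7, Ccl8 and Ccl12 are relatives of Ccl2 on chromosome 11, and whether counts were shared between these genes was not tested.

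The chemokine genes Ccl3 and Ccl4 were lower than in Mmp12 Cx3cr1 macrophages and higher than in other immune barcodes. Ccl4 had 592 and 855 CPM in Folr2 Mrc1 macrophages, against 4792 and 4134 CPM in Mmp12 Cx3cr1 macrophages and 359 and 379.9 CPM in other immune barcodes (log2 fold change -2.72 and 1.10, SE 0.21 each, adjusted p = 1.18e-06 and 8.43e-04). A Ccl4 UMI was found in 23 of the 68, and 1 barcode supplied 15.4% of the UMIs. Cxcl2, which draws neutrophils, had 4916 and 2671 CPM against 4254 and 3445 CPM in Mmp12 Cx3cr1 macrophages and did not pass the test there (adjusted p = 0.695).

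Of 20 tested receptors for traffic, 3 were higher and 10 lower than in other immune barcodes, where 13.1% and 15.7% of all genes were, and 5 were higher and 6 lower of 17 against the lymphoid gate alone. Against Mmp12 Cx3cr1 macrophages 2 were higher and 4 lower, where 5.8% and 6.89% of all genes were, and DESeq2 gave 2 and 2. Cxcr6, a receptor of T cells, had 0 and 1.25 CPM in Folr2 Mrc1 macrophages, against 0 and 0.790 CPM in Mmp12 Cx3cr1 macrophages and 192 and 260.2 CPM in other immune barcodes. Ccr2, the receptor of monocytes for Ccl2, passed neither test, with 399.7 and 112 CPM in Folr2 Mrc1 macrophages, against 167 and 194 CPM in Mmp12 Cx3cr1 macrophages and 311 and 333 CPM in other immune barcodes. The Ccr2 level of the Folr2 Mrc1 macrophages of replicate 1 was the highest of these 6 values and that of replicate 2 the lowest.

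Among cytokines, growth factors and secreted enzymes, 17 of 34 genes were higher and 6 lower than in other immune barcodes. The counts against Mmp12 Cx3cr1 macrophages were 12 higher and 9 lower. Shares over all genes were 13.1% and 15.7% in the first comparison and 5.8% and 6.89% in the second. DESeq2, and edgeR with no replicate block, each gave 6 higher and 9 lower in the second comparison. Mmp9, a gelatinase that cuts matrix (chromosome 2, 164940780 to 164955850), had 304 and 686 CPM in Folr2 Mrc1 macrophages and 0 UMIs in Mmp12 Cx3cr1 macrophages, at least 382-fold higher. In other immune barcodes it had 37.8 and 45.1 CPM (log2 fold change 3.63, SE 0.27, adjusted p = 2.98e-07), and in their neutrophil gate 556 and 770.0 CPM. A Mmp9 UMI was found in 10 of 17 and 42 of 51 Folr2 Mrc1 macrophages.

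Several inflammatory cytokine genes were lower than in Mmp12 Cx3cr1 macrophages. Il1b had 216 and 53.9 CPM in Folr2 Mrc1 macrophages, against 1649.7 and 1417 CPM in Mmp12 Cx3cr1 macrophages and 680.2 and 633 CPM in other immune barcodes (log2 fold change -3.88 and -2.45, SE 0.34 each, adjusted p = 3.71e-06 and 6.23e-05). Tnfsf13b, the B cell survival factor BAFF, was lower than in Mmp12 Cx3cr1 macrophages, with 16 and 6.27 CPM against 148 and 129.6 CPM. Il12b, a chain of interleukins 12 and 23, had 0 UMIs against 382 and 127 CPM, at least 75-fold lower. Gdf15 was higher in both comparisons, but 8 of the 68 barcodes held a UMI. Igf1, a growth factor, was higher as well, with 184 and 251 CPM in Folr2 Mrc1 macrophages, against 76.9 and 60.8 CPM in Mmp12 Cx3cr1 macrophages (adjusted p = 0.0187) and 42.2 and 151 CPM in other immune barcodes (adjusted p = 0.00878).

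Lipid handling genes were higher for 15 of 30 and lower for 8 against other immune barcodes (13.1% and 15.7% of all genes). Compared with Mmp12 Cx3cr1 macrophages, 10 were higher and 7 lower (5.8% and 6.89% of all genes). With no replicate block the last counts were 5 and 7, and with DESeq2 7 and 7. Apoe, the carrier of lipids (chromosome 7, 19696109 to 19699188), had 15008 and 18308 CPM in Folr2 Mrc1 macrophages, against 6996 and 8958 CPM in Mmp12 Cx3cr1 macrophages and 140.1 and 288 CPM in other immune barcodes (log2 fold change 0.97 and 6.47, SE 0.20 and 0.26, adjusted p = 0.00524 and 6.18e-10). At 5000 UMIs per barcode, 98.5% of Folr2 Mrc1 macrophages held an Apoe UMI, against 67.0% of Mmp12 Cx3cr1 macrophages. Pltp, which moves phospholipids, had 428 and 566 CPM, against 24.1 and 46.6 CPM in Mmp12 Cx3cr1 macrophages and 42.2 and 29.0 CPM in other immune barcodes. The tetraspanin Cd9, with 28 and 2.51 CPM against 247 and 451 CPM in Mmp12 Cx3cr1 macrophages, and the cyclooxygenase Ptgs2, with 12.0 and 6.27 CPM against 115 and 79.0 CPM, were lower.

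Of 39 transcription factor genes, 19 were higher and 11 lower than in other immune barcodes (13.1% and 15.7% of all genes). Compared with Mmp12 Cx3cr1 macrophages, 9 were higher and 8 lower (5.8% and 6.89% of all genes), and no replicate block gave 6 and 7. Klf2 and Klf4, which restrain inflammatory genes in myeloid cells, were higher in both. Klf4 had 683 and 1234 CPM in Folr2 Mrc1 macrophages, against 239.8 and 235 CPM in Mmp12 Cx3cr1 macrophages and 235 and 278 CPM in other immune barcodes. Klf2 had log2 fold changes of 2.17 against Mmp12 Cx3cr1 macrophages (SE 0.20, adjusted p = 4.33e-06) and 2.14 against other immune barcodes (SE 0.19, adjusted p = 9.40e-07). Nr4a1 was lower, with 56.0 and 60.2 CPM in Folr2 Mrc1 macrophages, against 246 and 198 CPM in Mmp12 Cx3cr1 macrophages and 396 and 481 CPM in other immune barcodes. Spi1, the PU.1 gene, did not pass either test (adjusted p = 0.391 and 0.06).

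Klf2, Klf4 and Nr4a1 also belong to the immediate early and dissociation stress genes, which enzymatic digestion can raise. That list held 19 higher and 9 lower of 42 against other immune barcodes (13.1% and 15.7% of all genes). The counts against Mmp12 Cx3cr1 macrophages were 13 higher and 8 lower (5.8% and 6.89% of all genes). They were 5 and 7 with no replicate block, so the list did not move in 1 direction. Egr1 had 1511 and 3344 CPM in Folr2 Mrc1 macrophages, against 1353 and 1878 CPM in Mmp12 Cx3cr1 macrophages (adjusted p = 0.212) and 522 and 741 CPM in other immune barcodes. Nr4a3 was lower in both comparisons, with 4.0 and 3.76 CPM, against 146 and 128 CPM in Mmp12 Cx3cr1 macrophages and 459.7 and 207 CPM in other immune barcodes. The part of digestion in these values was not tested.

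Monocyte genes were lower than in other immune barcodes for 18 of 27 and higher for 3, at a median log2 fold change of -2.82. Of all genes, 15.7% were lower and 13.1% higher there. Against Mmp12 Cx3cr1 macrophages 6 were higher and 7 lower by edgeR (5.8% and 6.89% of all genes), and 6 and 4 by DESeq2. S100a6, a calcium-binding protein, had 152 and 129 CPM in Folr2 Mrc1 macrophages, against 296 and 410.0 CPM in Mmp12 Cx3cr1 macrophages and 1629 and 1629 CPM in other immune barcodes. Cd52, a small surface protein of leukocytes, had 679 and 458 CPM, against 1852 and 1888 CPM in Mmp12 Cx3cr1 macrophages and 1608 and 1779 CPM in other immune barcodes. S100a10, in contrast, was higher than in Mmp12 Cx3cr1 macrophages, with 308 and 551 CPM against 60.3 and 174 CPM.

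Interferon-stimulated genes were higher for 19 of 40 and lower for 4 against other immune barcodes (13.1% and 15.7% of all genes). Compared with Mmp12 Cx3cr1 macrophages, 8 were higher and 1 lower (5.8% and 6.89% of all genes). Ifi207 had 2118 and 1849.7 CPM in Folr2 Mrc1 macrophages, against 779.6 and 809.8 CPM in Mmp12 Cx3cr1 macrophages and 181 and 142 CPM in other immune barcodes. It belongs to a family of close copies, as do Ifi204 and Ifi211. Oas2, an antiviral enzyme, had 112 and 84.0 CPM, against 21.1 and 25.3 CPM in Mmp12 Cx3cr1 macrophages and 10.1 and 7.60 CPM in other immune barcodes. The chemokine Cxcl10 did not pass the test against Mmp12 Cx3cr1 macrophages, with 444 and 162 CPM against 498 and 167 CPM.

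Of 18 tested cell cycle genes, 1 was higher and 10 lower than in other immune barcodes (13.1% and 15.7% of all genes). The counts against Mmp12 Cx3cr1 macrophages were 0 higher and 4 lower (5.8% and 6.89% of all genes). Against other immune barcodes DESeq2 gave 0 higher and 3 lower of 33. Against the dendritic gate alone edgeR gave 0 higher and 11 lower of 19, and against the lymphoid gate alone 2 and 2 of 14. By DESeq2, 0 were higher and 1 lower than in Mmp12 Cx3cr1 macrophages, and at an unadjusted p under 0.05 edgeR gave 0 and 11. Mki67, which marks dividing cells, had a UMI in 4 of 68 Folr2 Mrc1 macrophages and stood at 4.0 and 5.02 CPM, against 12.1 and 22.9 CPM in Mmp12 Cx3cr1 macrophages and 33.4 and 94.0 CPM in other immune barcodes. Within the other immune barcodes, Mki67 stood at 61.4 and 201 CPM in the dendritic gate and at 8.83 and 0 CPM in the lymphoid gate. Against the lymphoid gate alone its log2 fold change was 0.43.

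The 12 genes with the lowest log2 fold changes against other immune barcodes all had 0 UMIs in Folr2 Mrc1 macrophages, so that their folds are bounds. S100a9, which binds calcium in neutrophils, had 4239.5 and 2879 CPM in other immune barcodes, and its partner S100a8 had 3031 and 2059.5 CPM, which puts them at least 1252-fold (S100a9) and 895-fold (S100a8) lower in Folr2 Mrc1 macrophages. They lay in the neutrophil gate, where S100a9 stood at 62307 and 64831 CPM, and so did Retnlg. Ikzf3, Skap1, St6galnac3, Ltb and Trbc2 lay mostly in the lymphoid gate. Ccl5 had 1179 and 121 CPM in other immune barcodes, and Il1r2, the decoy receptor of interleukin 1, had 312 and 307 CPM. Flt1, a VEGF receptor, had 220.0 and 263 CPM.

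The 8 genes lowest against Mmp12 Cx3cr1 macrophages included Dcstamp, which serves the fusion of macrophages, with 0 UMIs against 155 and 166 CPM, at least 56.7-fold lower. Il2ra, the high-affinity chain for interleukin 2, had 0 UMIs against 289.5 and 74.3 CPM, at least 51.8-fold lower. Il1r2 had 0 UMIs against 96.5 and 66.4 CPM, at least 26.8-fold lower. AA467197 had 1 UMI, or 4.0 and 0 CPM, against 501 and 514 CPM. Macc1 and Haao had 0 UMIs too.

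Lyve1 and MHC class II varied widely among the Folr2 Mrc1 macrophages. After thinning to 5000 UMIs, which left out 2 and 1 barcodes, the sum of H2-Aa, H2-Ab1, H2-Eb1 and Cd74 ran from 0 to 413 UMIs in replicate 1 and from 0 to 461 in replicate 2. In replicate 1 the 6 barcodes with a Lyve1 UMI had a median of 81 class II UMIs, against 338 in the 9 without. In replicate 2 the 29 with a Lyve1 UMI had a median of 59, against 283 in the 21 without. The ranges overlapped, at 0 to 299 against 218 to 413 and at 0 to 311 against 25 to 461. Spearman's rho between Lyve1 and class II was -0.74 over 15 barcodes and -0.60 over 50, as a description across cells of the same library.

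**Figure D4:**
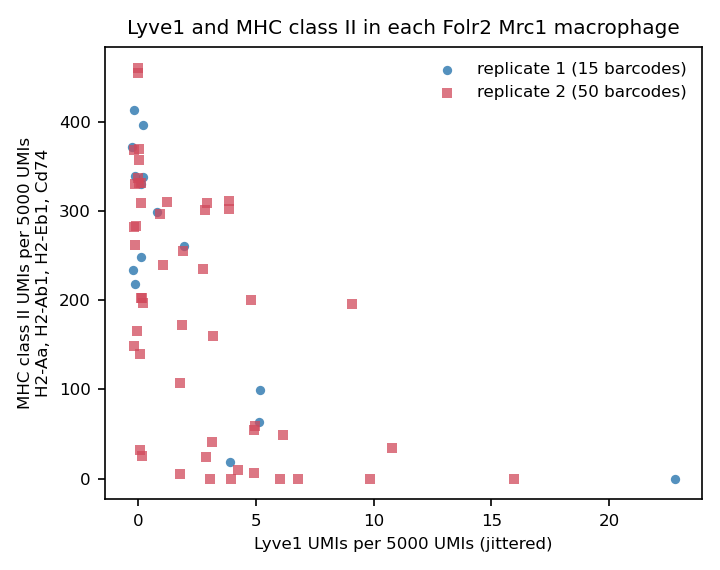
UMIs of 4 MHC class II genes (vertical axis) against Lyve1 UMIs (horizontal axis) in each Folr2 Mrc1 macrophage thinned to 5000 UMIs, coloured by replicate, with jitter along the horizontal axis. Barcodes without a Lyve1 UMI have medians of 338 and 283 class II UMIs, those with one 81 and 59.

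Other genes split the same cells. Among them, Cx3cr1 is a set A gene and Folr2 and Mrc1 are set B genes. Their pattern is given as a description and is no separate evidence for the split. Cx3cr1 was found in 1 of 6 and 1 of 29 barcodes with Lyve1, against 5 of 9 and 11 of 21 without. Ccr2 was found in 0 of 6 and 4 of 29 with Lyve1, against 6 of 9 and 6 of 21 without. In both libraries the 2 receptors were thus seen in a larger part of the barcodes without Lyve1. Timd4 was found in 5 of 6 and 14 of 29 with Lyve1, against 1 of 9 and 3 of 21 without, and Ccl24 in 5 of 6 and 23 of 29, against 1 of 9 and 4 of 21. Folr2 followed Lyve1, with 6 of 6 and 27 of 29 against 1 of 9 and 7 of 21. Mrc1 was found in all of these barcodes, but at a median of 14 and 27 UMIs per 5000 with Lyve1, against 4 and 11 without. Apoe was found in all but 1, at medians of 89 and 88 UMIs with Lyve1, against 62 and 82 without. Set B genes were themselves lower where class II was higher (rho -0.82 and -0.56), so this split runs along the genes of the rule.

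The series also counts Gfp and tdTomato. The labels tie tdTomato to Pth and do not say what Gfp marks. Gfp had 3745 and 2818 CPM in Folr2 Mrc1 macrophages, against 4406 and 2462 CPM in Mmp12 Cx3cr1 macrophages and 3428 and 5235 CPM in other immune barcodes. A Gfp UMI was found in 16 of 17 and 44 of 51 Folr2 Mrc1 macrophages (94.1%, exact binomial 95% interval 71.3 to 99.9, and 86.3%, 73.7 to 94.3), and in 73.3% and 76.0% at 5000 UMIs. Free RNA can also give Gfp UMIs. For that reason a level of at least 5 Gfp UMIs per 5000, chosen after the values were seen, was counted too. It was reached by 66.7% (38.4 to 88.2) and 56.0% (41.3 to 70.0) of Folr2 Mrc1 macrophages, against 58.3% and 41.4% of Mmp12 Cx3cr1 macrophages, 37.3% and 50.0% of lymphoid gate barcodes, 60.4% and 84.0% of dendritic gate barcodes and 94.3% and 80.2% of Pth-rich barcodes. The intervals of the 2 macrophage classes overlapped in both libraries. They cover counting error only, and cells of the same pool are not replicates. The overlap therefore does not decide whether the classes differ. Any Gfp UMI at 5000 UMIs was found in 27 of 36 and 36 of 70 Mmp12 Cx3cr1 macrophages. The counts were 11 of 15 and 38 of 50 in Folr2 Mrc1 macrophages.

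The tdTomato reporter had 91.9 and 109 CPM in Folr2 Mrc1 macrophages, against 87.5 and 125 CPM in Mmp12 Cx3cr1 macrophages, 112 and 102 CPM in other immune barcodes and 10014 and 10966 CPM in Pth-rich barcodes. There were 40.7 and 25.8 Gfp UMIs per tdTomato UMI in Folr2 Mrc1 macrophages, against 0.504 and 0.357 in Pth-rich barcodes. The values were 50.4 and 19.7 in Mmp12 Cx3cr1 macrophages and 30.5 and 51.3 in other immune barcodes. Within the latter they were 63.0 and 93.5 in the dendritic gate and 9.15 and 17.5 in the lymphoid gate. The ratio in free RNA was not measured, and the part of free RNA in these Gfp UMIs was not tested.

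**Figure D5:**
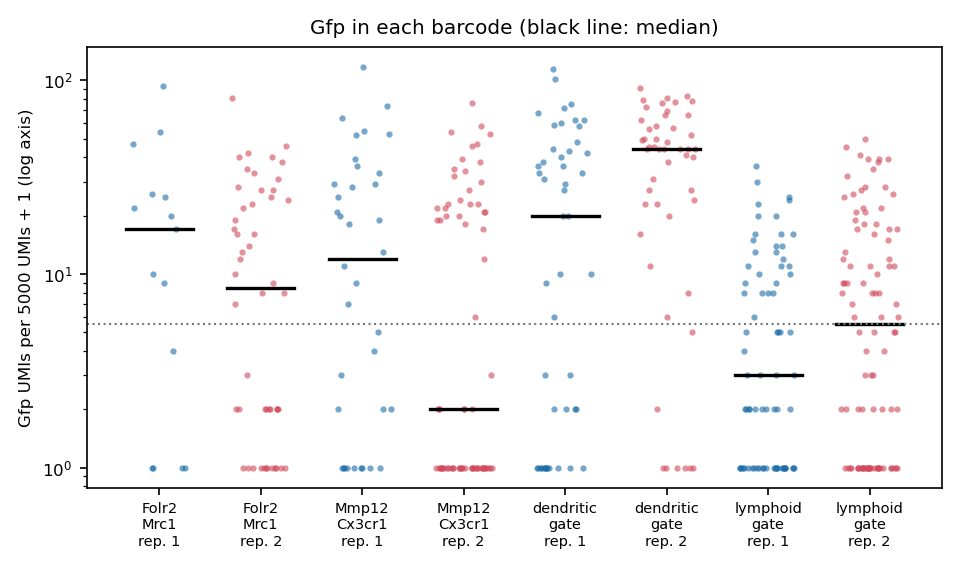
Gfp UMIs per barcode thinned to 5000 UMIs (log axis of the count plus 1) by class and replicate, 1 point per barcode, with a dotted line at the limit of 5 UMIs. Of the Folr2 Mrc1 macrophages, 10 of 15 in replicate 1 and 28 of 50 in replicate 2 lie above the line, and 4 and 12 lie at 0.

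Folr2 Mrc1 macrophages made up 28.3% of macrophages in replicate 1 (exact binomial 95% interval 17.5 to 41.4) and 38.6% in replicate 2 (30.3 to 47.5). The intervals overlapped and cover counting error only. Of 3393 genes with at least 50 CPM in the Folr2 Mrc1 macrophages of either library, 2964 (87.4%) lay within 2-fold between the replicates. Differences between the replicates have no replicate check, since each is 1 pool. Genes with the largest ratios were Gab3, Penk, Lsamp, Sema6a and Dcn, higher in replicate 2, and Gpr141, Cxcl9, Lyz1, Sirpb1c and Ifi202b, higher in replicate 1. Penk, Lsamp and Dcn drew 94.4%, 90.4% and 90.4% of their UMIs from the barcode of replicate 2 rich in fibroblast markers. Gab3, an adaptor in growth factor signalling, had 79.0 CPM in replicate 2 and 0 UMIs in replicate 1. Lyz1, the second lysozyme gene, had 8.78 CPM in replicate 2 and 299.8 CPM in replicate 1, with 52.4% of its UMIs from 1 barcode.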

How the data were processed

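Droplet single-cell RNA-seq (3′ kit) of 2 separate pools of glands was analysed. The authors deposited raw UMI counts per gene and barcode, made with Cell Ranger 7.0.0 on mm10, per the submitters' processing notes. The method that separated cells from empty droplets is not stated in the labels. Doublets were discriminated by flow cytometry, per the labels' protocols, and no caller was applied in the rule, but a Scrublet score of at least 0.25 (scanpy 1.11.5) or at least 5% haemoglobin UMIs was an alternative limit.

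UMI counts were summed per library for Folr2 Mrc1 macrophages, Mmp12 Cx3cr1 macrophages and other immune barcodes. Tied macrophages (6 and 10 barcodes) were left out of the fit because a class needed 10 in each library. The 6 sums were fitted with edgeR 4.0.16 in R 4.3.3 (TMM, filterByExpr, quasi-likelihood) with library as a block, since all classes in 1 library share their mice. This left 2 residual degrees of freedom, which the test moderates across genes, and p-values measure only how class differences spread over both pools. Calls used a Benjamini-Hochberg adjusted p of 0.05 over all genes, and the 18 genes of the rule stayed in the fit uncounted. CPM values were computed here. A gate needed UMIs of at least 2 of its genes and more than any other gate.

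The cells, markers and 17 gene lists were chosen with earlier results of these data known. Named genes were the 12 largest log2 fold changes each way against other immune barcodes and 8 against Mmp12 Cx3cr1 macrophages, among calls that had 1 sign in both libraries and, where higher, a mean of 20 CPM or more. Mitochondrial, ribosomal protein, Gm-number and Rik genes were skipped. Each list added up to 4 called genes of smallest p and the uncalled gene of highest CPM, and between replicates the 5 highest and 5 lowest ratios of genes with at least 50 CPM were named. A few genes that met these rules are not reported here. Other list members named were chosen after their values were seen. List entries Clec7a, Cd64, Marchf1, Mx1 and Mx2 were not matched. Thinning each barcode to 5000 UMIs, without shallower barcodes, was used for the split by Lyve1 and for values stated at that depth. Other counts of barcodes with a UMI, among them those of marker sets, used all UMIs and depend on depth. Intervals (95%) and floors (3 counts over a class) cover counting error only. Alternatives were DESeq2 1.42.0 and its size factors, no filter, no replicate block, only the classes compared, a margin of at least 2 genes, separate random shares (0.5 each) of the UMIs for choosing and testing, single gates, and other cell limits. The thinned sums and the sums without barcodes holding fibroblast markers were added after seeing the data.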

Additional observations from a re-analysis of the deposited data

How the results depend on the processing

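The counts of called genes moved by more than 1.5 times under some settings. DESeq2's own test gave 768 higher and 718 lower against other immune barcodes (1216 and 1456 with edgeR) and 286 higher and 401 lower against Mmp12 Cx3cr1 macrophages (539 and 641). Thinning every barcode to 5000 UMIs, chosen after seeing the data, gave 796 and 921, and 293 and 358. With no replicate block the counts against Mmp12 Cx3cr1 macrophages were 336 and 393, and the block changed the call of 4 named genes, all called with it. Among named results, DESeq2's own test left 17 weaker, 160 the same and 1 stronger. Thinned sums left 5 weaker, 155 the same and 4 stronger. A further setting used separate random shares (0.5 each) of the UMIs for choosing and testing. Of the 2672 calls against other immune barcodes, 2317 were tested in it and 1878 called in the same direction. Of the 1180 against Mmp12 Cx3cr1 macrophages, 1086 were tested and 786 called in the same direction. In both comparisons 0 were called in the other direction. Both shares came from the same barcodes, so genes that go along with the rule genes remain and the classes were not tested. The sign of the log2 fold change turned for Il1r2 (0.17) and Mki67 (0.43) against the lymphoid gate alone. Il1r2 had 0 UMIs in Folr2 Mrc1 macrophages, so its value does not show a higher level in them. The sign also turned for Top2a without replicate 2 (0.30, against -4.94 without replicate 1). The share of Folr2 Mrc1 macrophages with a Gfp UMI, 90.2% as the mean of the libraries, was 74.7% at 5000 UMIs. Leaving out each replicate gave Folr2 Mrc1 shares of macrophages of 28.3% to 38.6% and Gfp shares of 86.3% to 94.1%. A single library leaves no residual degrees of freedom, so no count of calls could be made from it. With 17 barcodes in replicate 1, genes of low level limit the comparison there.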
